A study of Mus musculus with 4 samples.

Results

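Matrix proteases and the proteins that hold them in check were followed in mammary cells from just after deletion of Trp53 and Brca1 to overt tumours. The set was 10 genes chosen by name, of 27998 genes measured in all libraries: the matrix metalloproteinases Mmp2, Mmp3, Mmp9, Mmp12, Mmp13 and Mmp14, the tissue inhibitors of metalloproteinases Timp1, Timp2 and Timp3, and the serine protease inhibitor Serpine2. The rule named them by their role and not by a measured value, but earlier results of these data were known at that choice. Counts and medians of the set, given below beside those of all genes, are thus descriptions. Matrix metalloproteinases (MMPs) are zinc enzymes, most of them secreted as inactive precursors, that cut collagens, elastin and other matrix proteins. The tissue inhibitors of metalloproteinases (TIMPs) block them by binding the active site, and Timp3 itself is held in the matrix. In the mammary gland these enzymes take part in duct branching and in the regression of the gland after lactation, and much of the MMP made in breast tumours is known to come from stromal and immune cells.

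All mice were females of mixed background carrying floxed alleles of both tumour suppressors and a Rosa26 YFP reporter (Trp53L/L;Brca1L/L;R26Y). All libraries, the early ones included, came from mice given Cre in the milk ducts by an adenovirus under the keratin 8 promoter (Ad-K8-Cre), which is active in luminal cells, so no library is a control with both genes intact. The 2 weeks library was YFP+ mammary epithelial cells sorted about 2 weeks after injection. The 5 months library joined YFP+ epithelial cells and CD45+ leukocytes sorted about 5 months after injection, in a ratio that the labels do not give. The tumour 1 and tumour 2 libraries were DAPI- live cells of a tumour mass, with no sort on YFP, so cells without recombination are among them. Each library was a droplet single-cell library (Chromium Single Cell 3' v2), in which each captured RNA molecule is counted once by a unique molecular identifier (UMI). Only the tumours are replicated (n = 2), and the number of mice behind each library is not stated. For contrasts between barcode classes over the 4 libraries, p-values rest on the spread of class differences over libraries (5 residual degrees of freedom). For tumours against an earlier library, the only replicate spread is that between the 2 tumours (1 residual degree of freedom). It is applied to the unreplicated early libraries too.

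The matrices held 1453 barcodes at 2 weeks, 4836 at 5 months, 2712 in tumour 1 and 1780 in tumour 2, with 6722044, 15060411, 23736366 and 13061942 UMIs. Pairs of libraries shared 2 to 16 barcode sequences. Trp53 had 55.9, 36.3, 10.1 and 51.9 CPM (UMIs of the gene per 1000000 UMIs of the barcodes summed) in keratin-positive barcodes of the 4 libraries in that order, and Brca1 had 4.17, 0.84, 1.73 and 1.28, with the deleted exons not located relative to the 3' tags. Barcodes were put into 3 classes by genes outside the set. The keratin class had at least 3 UMIs of Krt8 and Krt18 together and none of Ptprc, the pan-leukocyte gene that encodes CD45, and held 1235, 503, 441 and 421 barcodes. The Tyrobp class had at least 3 UMIs of Tyrobp, a signalling adaptor of myeloid and natural killer cells, and held 813, 2051 and 808 barcodes from 5 months on, whereas its 5 barcodes at 2 weeks gave no sum. The other class had no Ptprc and fell in neither, and held 209, 1687, 217 and 405 barcodes. The labels were set beside marker lists. All 8 epithelial markers were above 3 UMIs in every class sum. They include Krt8 and Krt18, so their summed level of 4222 to 13040 CPM in the keratin class was partly set by its rule. The sum was 93.0 to 413 CPM in the other class and 348 to 966 in the Tyrobp class. The 7 macrophage markers reached 3080 to 13118 CPM in the Tyrobp class. The other class was a mixture. Its fibroblast markers summed to 17584 CPM in tumour 1 against 789 in tumour 2, 563 at 5 months and 574 at 2 weeks, and T and B cell markers summed to 878 and 837 CPM in it at 5 months. Barcodes that met both the keratin and the Tyrobp threshold numbered 0, 7, 74 and 39, and no doublet caller was run. Levels are CPM of the summed class, with exact Poisson 95% intervals that cover counting error only.

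Mmp13, Mmp12 and Mmp3 lie within 183.461 kb of chromosome 9 (chr9:7272514-7455975, GRCm38.p6), on the same strand, with Mmp1b between Mmp12 and Mmp3 and with Mmp1a, Mmp10, Mmp8 and Mmp27 just beyond Mmp3. Their promoters are shown because these neighbours were spread differently over the classes. Each run below is the 150 bases before the RefSeq start of the gene, 5′ to 3′, and capitals mark the AP-1 heptamer TGANTCA, the letters bound by Fos and Jun dimers.

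Mmp13 promoter, chr9:7272364-7272513, plus strand: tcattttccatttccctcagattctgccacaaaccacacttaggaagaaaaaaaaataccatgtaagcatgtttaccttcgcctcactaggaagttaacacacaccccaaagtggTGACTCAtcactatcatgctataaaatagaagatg

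Mmp12 promoter, chr9:7344247-7344396, plus strand: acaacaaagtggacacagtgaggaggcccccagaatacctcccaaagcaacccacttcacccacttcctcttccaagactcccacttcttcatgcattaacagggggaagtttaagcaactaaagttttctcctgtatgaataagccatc

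Mmp3 promoter, chr9:7445672-7445821, plus strand: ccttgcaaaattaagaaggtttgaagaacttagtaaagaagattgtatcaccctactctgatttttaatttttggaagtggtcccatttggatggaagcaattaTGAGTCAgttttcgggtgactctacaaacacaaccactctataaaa

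The heptamer read TGACTCA in Mmp13, where it began 35 bases before the start, and TGAGTCA in Mmp3, where it began 46 bases before. It was found in no other member among the 8 whose promoters were in the RefSeq table (Mmp3, Mmp12, Mmp13, Mmp14, Timp1, Timp2, Timp3 and Serpine2), searched over 250 bases on both strands. Of all 32851 promoters in that table, 6.75% held it over the same length. A match in these letters is a description of the sequence and not of factor binding. Of the neighbours, Mmp10 had 155 CPM in the other class of tumour 1 and 0.65 in that of tumour 2, and Mmp8 had 83.5 CPM in the Tyrobp class of tumour 2 and 4.30 in that of tumour 1.

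**Figure D1:**
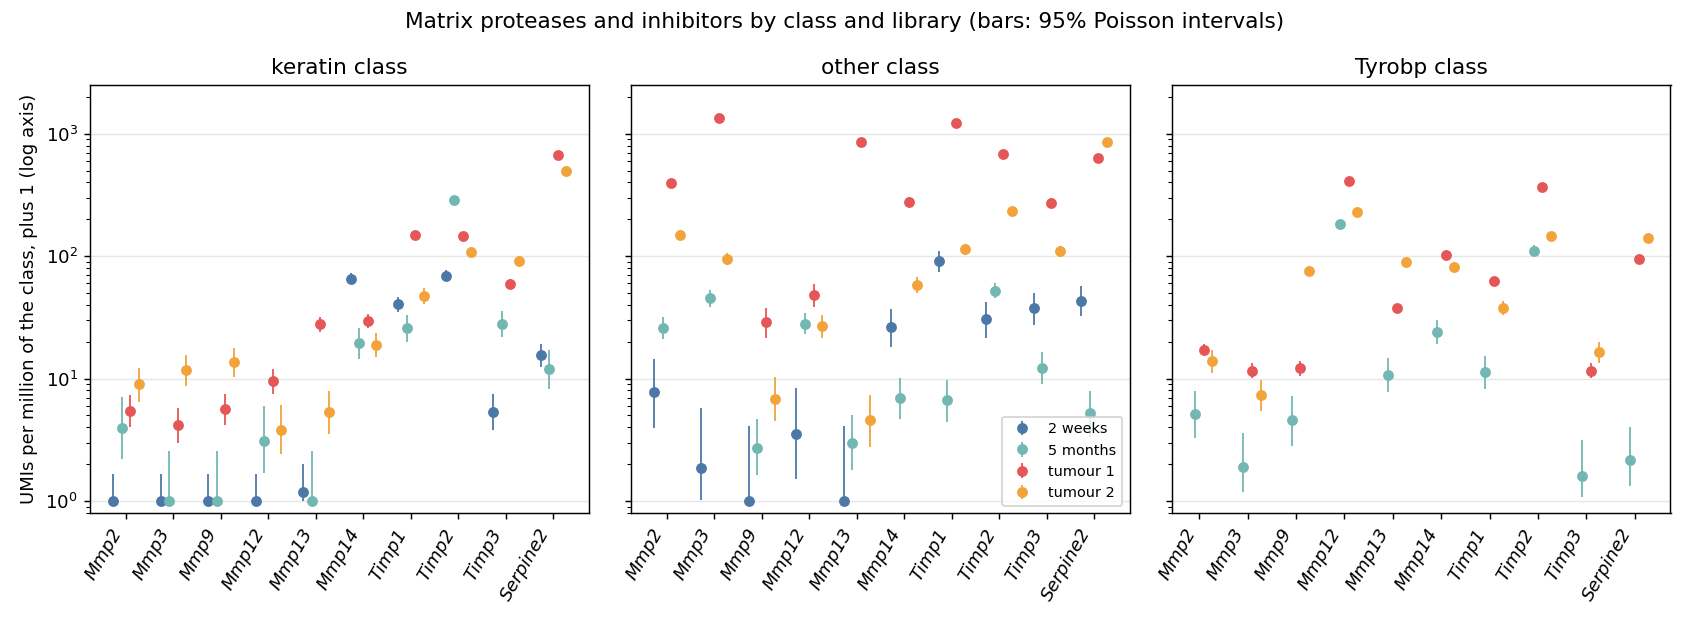
Level of each member (CPM of the class plus 1, log axis) in the keratin, other and Tyrobp classes, with 1 point per library and bars for 95% Poisson intervals. In the other class the tumour 1 points stand highest for 9 of 10 members (Serpine2 is the exception), Mmp12 is at 181 CPM or more in all 3 libraries of the Tyrobp class, and Serpine2 in the keratin class is at 669 and 496 CPM in the tumours against 14.5 and 11.0 before.

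The gelatinase Mmp2, which cuts denatured and basement membrane collagen, was mainly an RNA of the other class. It had 6.77 CPM there at 2 weeks (8 UMIs), 25.1 at 5 months, 397 in tumour 1 and 148 in tumour 2. Its keratin class levels were 0, 2.96, 4.47 and 7.96 CPM in the 4 libraries, and the Tyrobp class had 4.15 at 5 months, 16.1 in tumour 1 and 12.8 in tumour 2. Within each library the other class was the highest, and the ranges over libraries overlapped. In 1 edgeR fit of all class sums, with the library as a block, Mmp2 was 4.86 log2 units higher in the other than in the keratin class (SE 0.630, adjusted p = 0.00388). Against the Tyrobp class it was 3.45 higher (SE 0.615, edgeR adjusted p = 0.0126), a call that was lost without tumour 1 (adjusted p = 0.101) or tumour 2 (0.113).

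Mmp14 encodes the membrane-anchored collagenase that activates the Mmp2 precursor on the cell surface, in a complex in which Timp2 serves as the bridge. Its level in the other class was 25.4 CPM at 2 weeks, 5.92 at 5 months, 277 in tumour 1 and 57.3 in tumour 2. In the keratin class it had 64.4, 18.6, 28.7 and 18 CPM, and in the Tyrobp class 23.1, 101 and 80.8. The highest keratin class value was thus at 2 weeks, and tumour 1 was highest in the other classes. No class contrast of Mmp14 passed in the 4-library fit (edgeR adjusted p = 0.687, 0.761 and 0.340), and its direction between the other and Tyrobp classes turned with the settings given in the closing section. With the tumours alone, Mmp14 was 2.53 log2 units lower in the keratin than in the Tyrobp class (edgeR adjusted p = 0.0197).

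The 3 genes of that activation complex were found together most often in the other class of tumour 1. In the other class of tumour 1, 90 of 217 barcodes (41.5%) carried UMIs of Mmp14, Mmp2 and Timp2 together, and in tumour 2 36 of 405 (8.89%) did. The corresponding shares of the keratin class were 2.04% and 1.66%, and of the Tyrobp class 4.34% and 1.73%. The keratin class barcodes of tumour 1 were the deeper ones, at a median of 14000 UMIs against 7419 in the other class and 6595 in the Tyrobp class.

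Gates inside the other class placed these genes further. A fibroblast gate (Dcn and Col3a1 together at 3 UMIs or more, without endothelial genes) held 138 barcodes in tumour 1, 63.6% of the class, and 34 in tumour 2, 8.40%. Mmp2 had 546 CPM (507 to 588) in the tumour 1 gate and 935 (806 to 1079) in the tumour 2 gate. Mmp14 had 333 and 165 CPM there, and Timp2 907 and 775. In tumour 1 the gate held 97.9% of the Mmp2, 85.5% of the Mmp14 and 94.1% of the Timp2 UMIs of the other class. In tumour 2 it held 41.1%, 18.8% and 21.9%, and the Cdkn2a gate (at least 2 UMIs of Cdkn2a, outside the fibroblast and endothelial gates) held 30.3%, 40.3% and 51.4%, at 79.3, 40.8 and 209 CPM. Thinned to 2000 UMIs per barcode, 49.3% (40.7 to 57.9) of fibroblast gate barcodes in tumour 1 and 64.7% (46.5 to 80.3) in tumour 2 carried Mmp2. The unthinned shares were 76.1% and 67.6%. In lymphocytes, gated on Cd3 and Cd79 genes as cells that should lack Mmp2, the thinned share was 0.0969% at 5 months (1 of 1032) and 0 of 142 in tumour 2, which allows a share of up to 2.11% at 3 counts, or 2.56% by the exact binomial limit. Those gates had median depths of 1946 and 3139.5 UMIs, against 8431.5 and 5465.5 in the fibroblast gates. Shares carry exact binomial 95% intervals.

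Mmp3 (stromelysin 1) digests a broad range of matrix proteins and activates other MMP precursors. Its other class level was 0.85 CPM at 2 weeks (1 UMI), 44.3 at 5 months, 1339 in tumour 1 and 93.4 in tumour 2. Mmp3 had no UMI in the keratin class at 2 weeks or 5 months, and 3.17 and 10.8 CPM there in the tumours. The Tyrobp class had 0.89, 10.6 and 6.31 CPM. The other class was highest in every library, tumour 1 far above the rest. With no Tyrobp UMI allowed in it, its levels were 50.1 CPM for the 5 months library and 1455 and 26.4 for the tumours, which puts tumour 2 below 5 months. Mmp3 was 6.36 log2 units higher in the other than in the keratin class (SE 1.05, edgeR adjusted p = 0.00893) and 5.79 higher than in the Tyrobp class (SE 0.985, edgeR adjusted p = 0.0106). Without tumour 1 the edgeR adjusted p became 0.0557 and 0.0775, and with the tumours alone the first was 0.0605.

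Few barcodes held most of the Mmp3 RNA. In the other class, 50% of the UMIs lay in 7 of 217 barcodes of tumour 1, in 3 of 405 of tumour 2 and in 3 of 1687 at 5 months. Without the single richest barcode the levels were 1218 CPM in tumour 1, 63.0 in tumour 2 and 28.8 at 5 months. In the Tyrobp class of tumour 1 one barcode held 47.3% of the Mmp3 UMIs, and the level without it was 5.58 CPM. In the keratin class of tumour 2 one barcode held 52.4%, leaving 5.15 CPM. The fibroblast gates had 1830 CPM (tumour 1) and 985 (tumour 2), with thinned shares of 33.3% and 35.3% against 0 of 142 in the lymphocyte gate of tumour 2. The class levels of the tumours were 14.3-fold apart, while the gate levels lay closer together. Of the 72 barcodes with Mmp3 in the other class of tumour 1, 68 also had Timp1, as did 14 of 26 in tumour 2. Timp1 was present in 70.0% and 23.5% of all other class barcodes of these libraries. In their fibroblast gates the unthinned shares with Timp1 were 93.5% and 50%, so the overlap was near that of the gates.

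Mmp13, the interstitial collagenase of mice, did not follow Mmp3 in tumour 2. The other class had 0 CPM at 2 weeks, 1.97 at 5 months, 847 in tumour 1 and 3.58 in tumour 2. In the Tyrobp class the levels were 9.77, 36.5 and 88.4 CPM, and in the keratin class 0.18 (1 UMI), 0, 26.8 and 4.36. Tumour 1 was highest in the other and keratin classes, and tumour 2 was highest in the Tyrobp class. The edgeR adjusted p of its class contrasts was 0.762 (other against Tyrobp), 0.299 (other against keratin) and 0.0731 (keratin against Tyrobp). The other class value of tumour 1 rested on few barcodes: 2 of 217 held 50% of the UMIs, the richest held 632 UMIs (40.6%), and the class had 506 CPM without it. The fibroblast gate of tumour 1 had 628 CPM of Mmp13 in 24 of 138 barcodes, and that of tumour 2 had 0 UMIs in 34 barcodes, which allows a level of up to 15 CPM at 3 counts, or 18.5 by the exact Poisson limit. Barcodes of the other class of tumour 1 outside all gates had 3278 CPM, from 4 of 42 barcodes.

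The C1q gate of the Tyrobp class was barcodes with at least 3 UMIs of the complement genes C1qa, C1qb and C1qc, which mark tissue macrophages. Its Mmp13 level was 43.8 CPM in the 5 months library and 37.0 and 176 in the tumours. The rest of the class, outside this gate and the neutrophil gate (S100a8 and S100a9), had 0, 31.9 and 44.7 CPM, and the neutrophil gate had 35.1 in tumour 1 and 14.98 in tumour 2. Macrophage markers summed to 5333 CPM in the neutrophil gate of tumour 1 and 842 in that of tumour 2. The C1q gate thus stood above the rest at 5 months and in tumour 2, while in tumour 1 the intervals overlapped (33.8 to 40.3 against 22.3 to 44.1). The C1q gate had thinned shares of 6.04%, 4.48% and 15.4%. The intervals of tumour 2 (11.7 to 19.8) and tumour 1 (3.59 to 5.52) did not overlap. The lymphocyte gate had 0 of 1032 at 5 months, which allows a share of up to 0.291% by the 3-count limit and 0.357% by the exact binomial one, and 1 of 142 in tumour 2. Among Mmp13-positive barcodes of the class, Mmp12 was present in 126 of 229 in tumour 1 (55.0%) and 60 of 110 in tumour 2 (54.5%), while Mmp12 was present in 25.4% and 20.2% of all barcodes of the class.

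Mmp12, the macrophage elastase, marked the Tyrobp class in each library that had one. The 5 months library had 181 CPM (167 to 196), tumour 1 had 407 (397 to 417) and tumour 2 had 227 (215 to 240). Keratin class levels were 0, 2.11, 8.51 and 2.82 CPM, and the other class 2.54, 27.1, 46.8 and 25.7. The Tyrobp class did not overlap with either of the others. Mmp12 was 6.75 log2 units lower in the keratin than in the Tyrobp class (SE 0.553, edgeR adjusted p = 0.000356), a call kept in all 12 alternative fits (highest adjusted p = 0.0104). It was 3.27 lower in the other than in the Tyrobp class (SE 0.485, edgeR adjusted p = 0.0058), and this was lost without tumour 1 (adjusted p = 0.0515) or tumour 2 (0.116).

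Mmp12 was also 3.48 log2 units higher in the other than in the keratin class (SE 0.499, edgeR adjusted p = 0.00504). The Tyrobp RNA that the other class is allowed, at 1 or 2 UMIs, moved with this value. With no Tyrobp UMI allowed, the other class had 1.95, 28.0 and 11.7 CPM of Mmp12 at 5 months and in the tumours, and the difference was 2.03 (edgeR adjusted p = 0.0804). At 5 months 1 barcode held 58.3% of the Mmp12 UMIs of the other class, which had 11.3 CPM without it. The part of such RNA in the class contrast was not tested.

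Within the Tyrobp class the C1q gate had 671 CPM of Mmp12 at 5 months (162 barcodes), 398 in tumour 1 (1873) and 418 in tumour 2 (331). The rest of the class had 41.1, 638 and 231 CPM, so that in tumour 1 it was above the C1q gate and carried Mmp12 in a like share of barcodes (27.0% and 25.6%, unthinned). The lymphocyte gate had 1.84 CPM at 5 months and 5.75 in tumour 2. At equal depth, 38.3% (30.4 to 46.6), 15.8% (14.2 to 17.5) and 24.5% (19.9 to 29.5) of C1q gate barcodes carried it, in the same order of libraries. The highest level and share were thus at 5 months, before tumours, although the class level was lowest there. The C1q gate was 19.9% of the Tyrobp class at 5 months, 91.3% in tumour 1 and 41.0% in tumour 2.

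Mmp9, the other gelatinase, is stored in neutrophil granules. Its Tyrobp class level was 3.55 CPM at 5 months, 11.1 in the first and 74.7 in the second tumour. The keratin class had 0, 0, 4.61 and 12.6 CPM in the 4 libraries and the other class 0, 1.69, 27.7 and 5.86. Tumour 2 stood above tumour 1 in the Tyrobp and keratin classes, and below it in the other class. Mmp9 was 3.29 log2 units lower in the keratin than in the Tyrobp class (SE 0.980, edgeR adjusted p = 0.0476). That call was lost without 5 months (0.129), tumour 1 (0.0854) or tumour 2 (0.157).

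Most Mmp9 UMIs of the Tyrobp class of tumour 2 lay in the neutrophil gate, barcodes with at least 10 UMIs of S100a8 and S100a9. Its 289 barcodes had 141 CPM of Mmp9 and 68.3% of the class's Mmp9 UMIs, and the C1q gate had 3.39 CPM. At equal depth 33.6% (28.1 to 39.3) of neutrophil gate barcodes carried Mmp9, against 0.604% (0.0733 to 2.17) of C1q gate barcodes and 1.41% of lymphocytes (2 of 142). The unthinned shares were 52.2%, 2.42% and 1.41%. In tumour 1 the neutrophil gate had 52 barcodes, 22.3 CPM and a share of 9.62% (3.20 to 21.0). Its macrophage markers summed to 5333 CPM and its neutrophil markers to 20764, against 842 and 75748 in the tumour 2 gate. The tumour 1 gate was thus not neutrophils alone. It held 7.95% of the Mmp9 UMIs of the class there, and barcodes outside both gates held 55.7%, at 86.8 CPM. Of the 98 Mmp9 UMIs outside both gates, 79 lay in a single barcode. Fibroblast markers summed to 2105 CPM in these barcodes, epithelial markers to 1923 and macrophage markers to 431. The fibroblast gates had 37.5 and 30.01 CPM of Mmp9. Neutrophil markers summed to 27842 CPM in the Tyrobp class of tumour 2, 1009 in tumour 1 and 2084 at 5 months, 1896 in the keratin class of tumour 2 and 229 in that of tumour 1. Mmp9 and Mmp12 were both present in few barcodes: 26 of 2051 Tyrobp class barcodes of tumour 1 and 8 of 808 of tumour 2. In tumour 1 one barcode held 44.9% of the Mmp9 UMIs of the class, and the level without it was 6.14 CPM. In tumour 2 the richest barcode held 27.2%, and the level without it was 54.5 CPM.

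**Figure D2:**
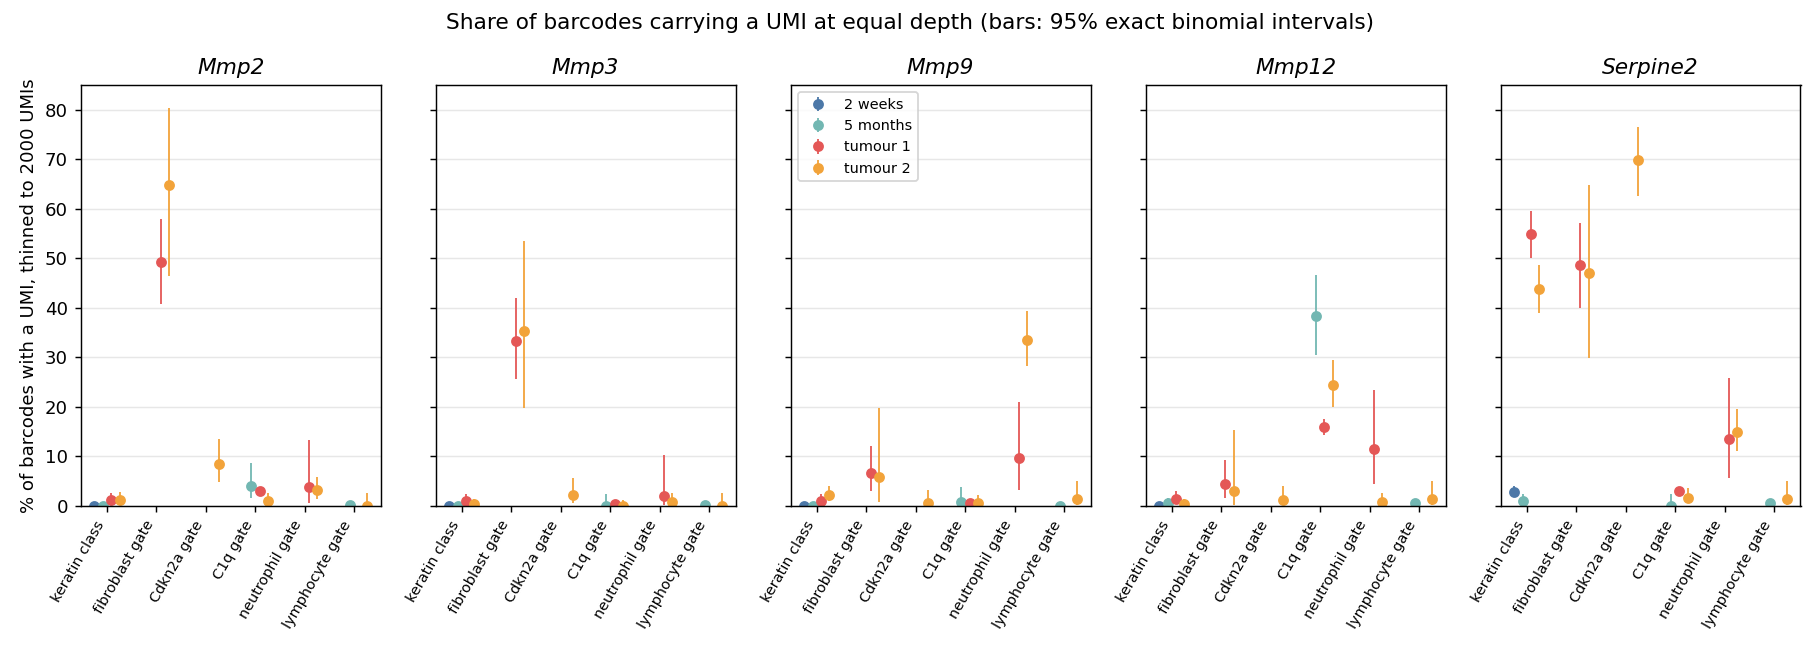
Share of barcodes with at least 1 UMI after thinning to 2000 UMIs, for 5 members in 6 groups of barcodes, with 1 point per library that has at least 30 barcodes in the group and bars for exact binomial 95% intervals. Mmp2 and Mmp3 stand out in the fibroblast gates, Mmp9 in the neutrophil gate of tumour 2, Mmp12 in the C1q gates of 5 months and tumour 2, and Serpine2 in the keratin class, fibroblast and Cdkn2a gates of the tumours.

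Among the inhibitors, Timp1, a secreted inhibitor induced in many injured tissues, was highest in the other class of tumour 1. That class had 89.7 CPM at 2 weeks, 5.64 at 5 months, 1214 in tumour 1 and 113 in tumour 2. Keratin class levels were 39.4, 24.9, 146 and 46.5 CPM and the Tyrobp class 10.4, 62.0 and 36.8. Tumour 1 was above the earlier libraries in every class. Tumour 2 was as well, but in the keratin class it had 35.9 CPM without its richest barcode, against 38.1 at 2 weeks without its own. In the other class with no Tyrobp UMI allowed it had 63.1 CPM, against 89.8 at 2 weeks. No class contrast of Timp1 passed (edgeR adjusted p = 0.187, 0.385 and 0.614). The fibroblast gates had 1653 and 430 CPM, and thinned shares of 66.7% (58.1 to 74.5) and 35.3% (19.7 to 53.5), against 0 of 142 lymphocytes. At 5 months a single barcode held 68.6% of the Timp1 UMIs of the Tyrobp class, which had 3.26 CPM without it.

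Timp2, which both inhibits MMPs and bridges Mmp14 to the Mmp2 precursor, was spread over all classes. It had 68.2 CPM at 2 weeks, 285 (264 to 308) at 5 months, 146 in tumour 1 and 107 in tumour 2 in the keratin class. The other class had 29.6, 51.3, 685 and 231 CPM and the Tyrobp class 110, 365 and 144. In the keratin class the 5 months library was highest, and in the other classes tumour 1 was. Contrasts of Timp2 between classes were near 0 (edgeR adjusted p = 0.982, 0.979 and 0.984) and turned sign with the libraries used. With the tumours alone it was 1.32 log2 units lower in the keratin than in the Tyrobp class (edgeR adjusted p = 0.0363). The lymphocyte gate was not empty of it, at 47.2 CPM at 5 months and 61.4 in tumour 2, with thinned shares of 8.91% and 8.45%. The keratin class shares were 11.2%, 37.6% (33.1 to 42.2), 19.0% and 15.7% (12.3 to 19.5). At 5 months the keratin class lay above the lymphocyte interval of its own library (7.25 to 10.8), and in tumour 2 the intervals overlapped (4.44 to 14.3 in lymphocytes).

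Timp3, the matrix-bound inhibitor, was low in the Tyrobp class: 0.59 CPM at 5 months (2 UMIs), 10.6 in tumour 1 and 15.4 in tumour 2. The keratin class had 4.35, 27.0, 58.4 and 89.9 CPM and the other class 36.4, 11.3, 273 and 108. Within each library the Tyrobp class was the lowest. Timp3 was 4.26 log2 units higher in the other than in the Tyrobp class (SE 0.821, edgeR adjusted p = 0.0169) and 3.18 higher in the keratin than in the Tyrobp class (SE 0.764, edgeR adjusted p = 0.0183). Each call was lost without tumour 1 (adjusted p = 0.199 and 0.101) or tumour 2 (0.0922 and 0.0669).

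Serpine2, also called protease nexin 1, is a serine protease inhibitor that binds thrombin, plasmin and urokinase, enzymes that feed into MMP activation. In the keratin class the 2 weeks library had 14.5 CPM (11.5 to 18.1) and the 5 months library 11.0 (7.17 to 16.1), while tumour 1 had 669 (649 to 688) and tumour 2 had 496 (474 to 518). The other class had 42.3, 4.23, 629 and 855 CPM. Both tumours lay far above both early libraries in these classes, with no overlap. At equal depth 2.77%, 0.889%, 54.9% (50.1 to 59.6) and 43.7% (38.9 to 48.6) of keratin class barcodes carried it, against 0.581% and 1.41% of lymphocytes at 5 months and in tumour 2. In tumour 2 the Cdkn2a gate of the other class (179 barcodes) had 1061 CPM, and 69.8% (62.5 to 76.5) of its barcodes carried Serpine2. This gate had 3.45 CPM of the fibroblast gene Col1a1, 142 of the epithelial gene Epcam and 923 of Vim, and is called here only by its rule.

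Serpine2 was 3.10 log2 units higher in the other than in the Tyrobp class (SE 0.593, edgeR adjusted p = 0.0166), lost without tumour 1 (0.151) or tumour 2 (0.112). It was 2.83 higher in the keratin than in the Tyrobp class (SE 0.583, edgeR adjusted p = 0.00932), lost without tumour 1 (0.0906). The Tyrobp class itself had 1.18, 93.2 and 140 CPM of Serpine2. Among its barcodes with no UMI of Krt8, Krt18 or Cdkn2a (717, 1407 and 563), the levels were 1.41, 14.2 and 21.7 CPM. Timp1 in those barcodes was 12, 21.2 and 24.7 CPM and Timp3 0.70, 3.74 and 6.64, whereas Mmp12 stood at 178, 534 and 330. The neutrophil gate of tumour 2 had 283 CPM of Serpine2 and 218 of Cdkn2a, against 10.2 and 11.9 in its C1q gate.

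**Figure D3:**
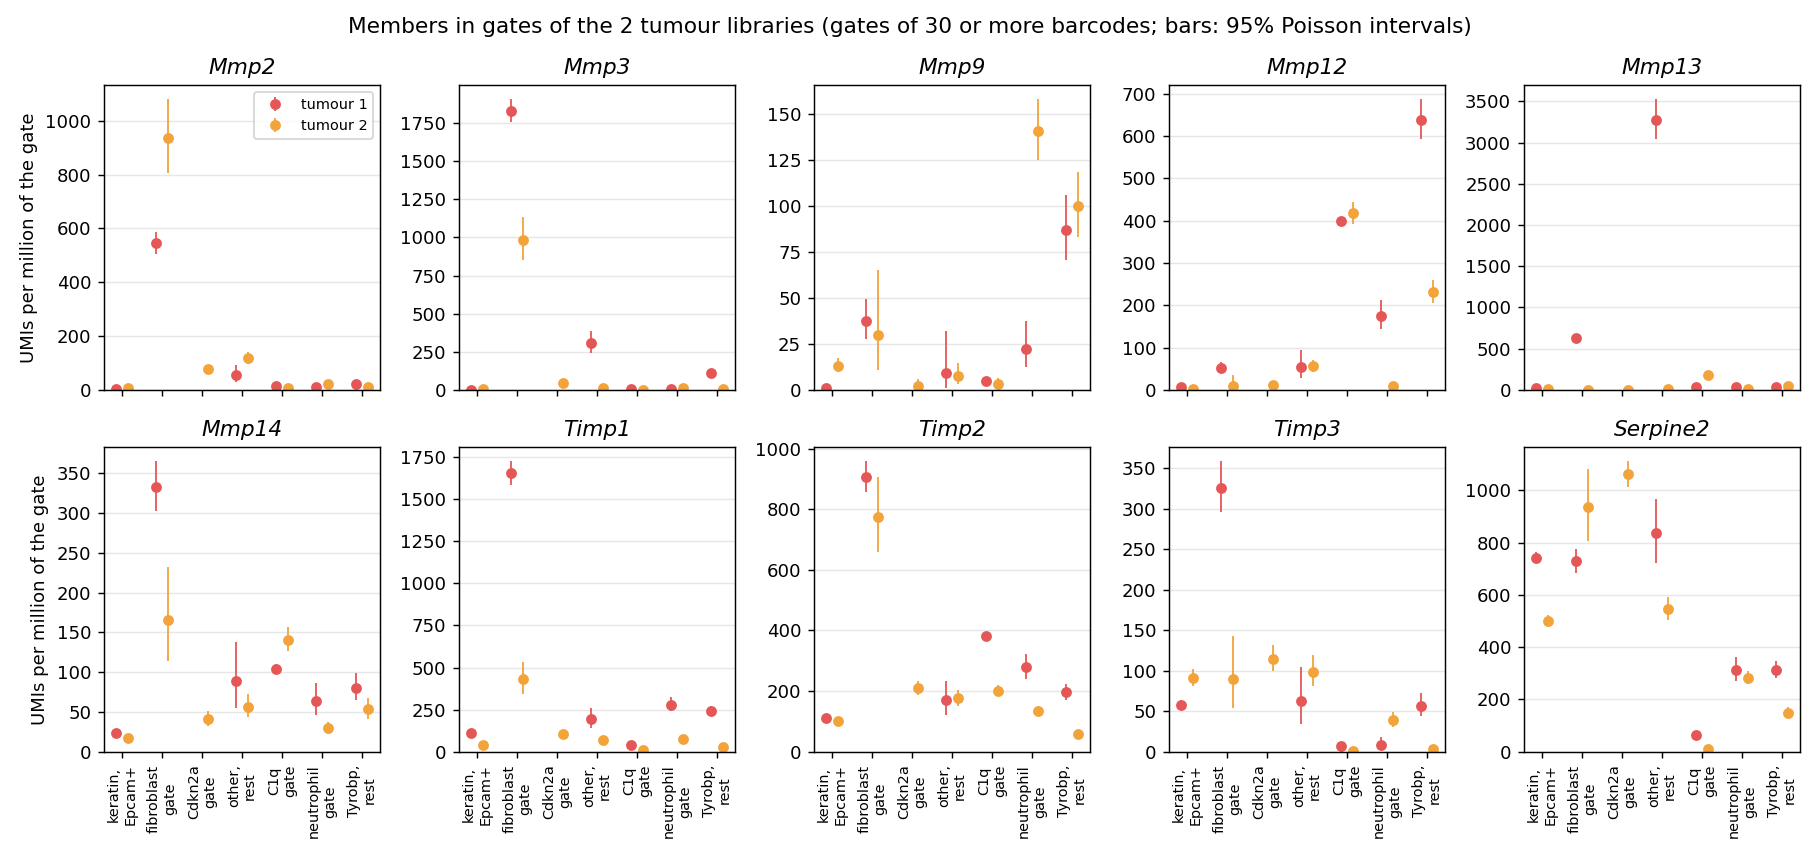
Level of each member (CPM of the gate) in gates of the tumours, with 1 point per tumour and bars for 95% Poisson intervals; each panel has its own axis from 0, and gates under 30 barcodes have no point. Mmp2, Mmp3, Timp1 and Timp2 are highest in the fibroblast gate in both tumours, Mmp9 peaks in the neutrophil gate of tumour 2 at 141, and Serpine2 is at 1061 in the Cdkn2a gate of tumour 2.

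Set side by side, the class contrasts called 4 members higher in the other than in the Tyrobp class (Mmp2, Mmp3, Timp3 and Serpine2) and 1 lower (Mmp12), where edgeR called 7.28% of all tested genes, 2.48% higher and 4.81% lower. Against the keratin class 3 of 10 members were higher in the other class (Mmp2, Mmp3 and Mmp12) and none lower, where 5.95% of all genes were called, 3.66% higher and 2.29% lower. Between the keratin and Tyrobp classes 2 members were higher (Timp3 and Serpine2) and 2 lower (Mmp9 and Mmp12), beside 20.1% of all genes, 8.82% higher and 11.3% lower. The median log2 difference of the 10 members was 1.06, 1.74 and -0.94 in these contrasts, and that of all 11797 tested genes was 0.04, 0.02 and 0.00. All 10 members passed the filter on low counts in every comparison, some through the class or group in which they were high. Without the library block, the call of Mmp12 between the keratin and Tyrobp classes was the 1 of these 12 that passed. With barcodes of 3 or more Tyrobp UMIs counted in the other class too, none of the 5 calls against the Tyrobp class passed (edgeR adjusted p = 0.121 to 0.202).

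**Figure D4:**
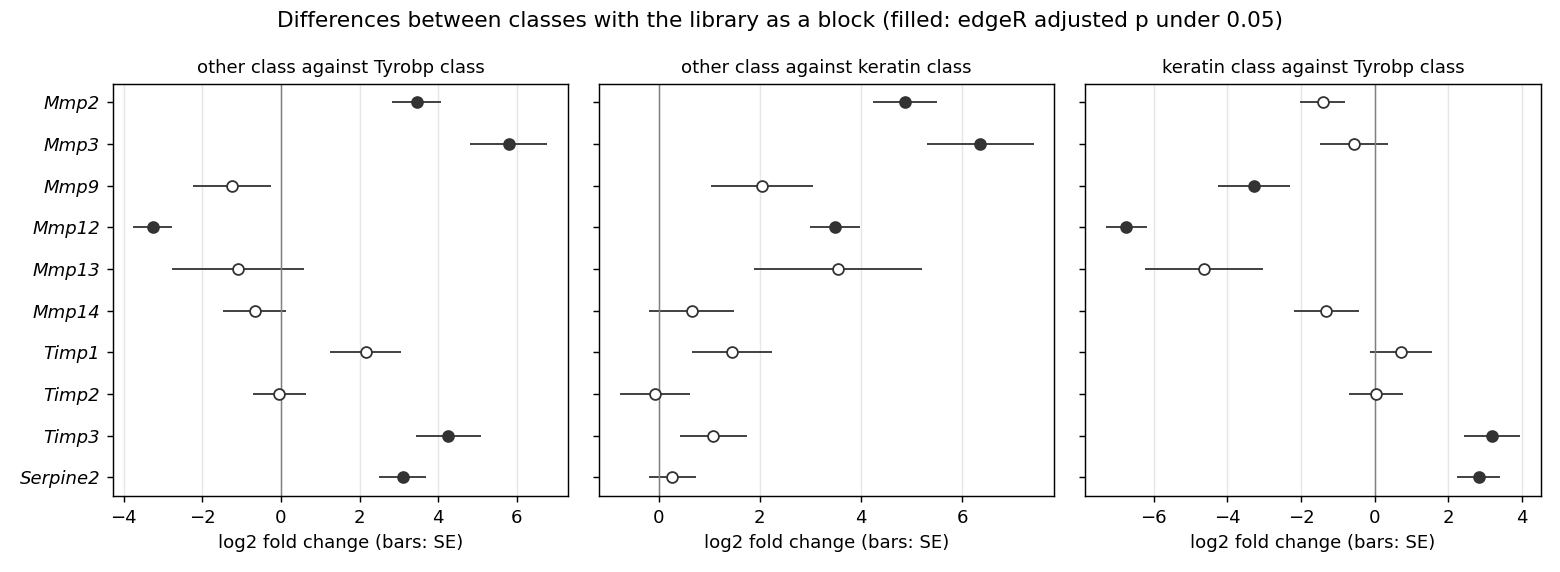
Log2 fold change of each member between classes (bars are 1 SE), from the fit with the library as a block; filled points have an edgeR adjusted p under 0.05. Mmp2 and Mmp3 are filled and to the right in both contrasts of the other class, and Mmp12 is filled in all 3, furthest left at -6.75 in keratin against Tyrobp.

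The next question was how the members differ between tumours and earlier stages within a class. In the keratin class, Serpine2 rose by 5.42 log2 units in tumours (582 ± 122 CPM, SD, n = 2) over 2 weeks (14.5 CPM; SE 0.726, edgeR adjusted p = 0.0337). It was the 1 member of 10 that was called, where 1.08% of all tested genes were called, 0.54% higher and 0.54% lower. Of the members 8 had an unadjusted edgeR p under 0.05, beside 1972 of all 12416 tested genes. DESeq2 called 4 members, and its counts over all genes are in the closing section. The edgeR call of Serpine2 is a near one. Its adjusted p was 0.0517 with another normalization (RLE size factors). It was 0.059 in barcodes with at least 500 genes and at most 10% mitochondrial UMIs. Timp3, at 74.1 ± 22.3 CPM (SD, n = 2) against 4.35, was 4.16 log2 units apart (SE 0.684) and missed the threshold at an edgeR adjusted p of 0.0501. With barcodes of both named classes left out, its adjusted p was 0.0273 and that of Serpine2 was 0.0152.

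Mmp2, Mmp3, Mmp9 and Mmp12 had no UMI in 1235 keratin class barcodes at 2 weeks and 62, 64, 81 and 70 UMIs in the tumours. Taking 3 counts as the floor of the 2 weeks library, their mean tumour levels were at least 11.4-fold, 12.8-fold, 15.8-fold and 10.4-fold higher. Mmp13 had 1 UMI at 2 weeks and 203 in the tumours, a pooled ratio of 103 (counting interval 18.3 to 4101). Of the 203 UMIs, 186 lay in tumour 1 and 17 in tumour 2, and the mean was 15.6 ± 15.9 CPM (SD, n = 2). In tumour 1 a single barcode held 57 Mmp13 UMIs (30.6%), and the level without it was 18.7 CPM. The pooled ratio thus rested mainly on tumour 1. None of Mmp2, Mmp3, Mmp9, Mmp12 and Mmp13 passed (edgeR adjusted p between 0.0996 and 0.148). Macrophage and neutrophil markers of the keratin class were also higher in the tumours, summing to 3.08 and 0.54 CPM at 2 weeks, 297 and 229 in tumour 1 and 76.5 and 1896 in tumour 2, and their part in these MMP levels was not tested. In Epcam-positive barcodes alone, Mmp9 had 0.995 CPM in tumour 1 and 13.1 in tumour 2. Mmp14 had the lower level in tumours, 23.3 ± 7.58 CPM (SD, n = 2) against 64.4, with no call (log2 -1.35, edgeR adjusted p = 0.301).

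Against 5 months, edgeR called 0 of 10 members in the keratin class, where it called 0% of all genes higher and 0.137% lower. Of the 10, 5 had an unadjusted edgeR p under 0.05, beside 1097 of all 12416 tested genes. DESeq2 called 1 member, Serpine2 (adjusted p = 2.8e-14), with its count over all genes in the closing section. Serpine2 was 5.66 log2 units higher in the tumours than at 5 months (SE 0.745, edgeR adjusted p = 0.0615). Timp2 was the member with the lower tumour level, 126 ± 27.6 CPM (SD, n = 2) against 285 (log2 -1.24, edgeR adjusted p = 0.559). The median over the members was 5.89 against 2 weeks and 1.64 against 5 months, beside 0.04 and 0.06 over all genes. Among the values behind the first median, Mmp2, Mmp3, Mmp9 and Mmp12 had no UMI at 2 weeks and Mmp13 had 1. Fitted values from such counts depend on the prior count. Both contrasts share the tumour libraries.

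In the Tyrobp class, tumours against 5 months gave no called gene at all with edgeR, 0 of 11939 (0% higher and 0% lower), while 1392 had an unadjusted p under 0.05 and DESeq2 called 230. Of the members, 7 had an unadjusted p under 0.05 and DESeq2 called 3 (Mmp9, Mmp13 and Serpine2). All 10 had a higher mean in the tumours. Mmp14 stood at 91.0 ± 14.4 CPM (SD, n = 2) against 23.1 (log2 1.86, SE 0.411, edgeR adjusted p = 0.307). Serpine2 and Timp3 had the largest fitted values, 6.49 and 4.30 (edgeR adjusted p = 0.274 for each), from 4 and 2 UMIs at 5 months. C1q gate barcodes were 19.9% of the class at 5 months and 91.3% and 41.0% in the tumours. In the C1q gate alone Mmp14 had 89.0, 105 and 141 CPM, Timp2 317, 383 and 201, and Mmp12 671, 398 and 418.

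The test of whether the step from 5 months to tumour differs between the keratin and Tyrobp classes called 0 of 10 members with edgeR, where it called 0.0629% of all genes, 0.0157% higher and 0.0472% lower. Of the members 3 had an unadjusted edgeR p under 0.05 (Mmp14, Timp2 and Timp3), beside 1117 of all 12714 tested genes. DESeq2 called 0 members, with its count over all genes in the closing section. Timp2 had the smallest edgeR adjusted p, 0.188, with a difference of -2.46 (SE 0.548).

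The lone 2 weeks and 5 months libraries were compared without a test. A gene counted as apart when its levels, each raised by 1 CPM, differed 2-fold or more and the higher one reached 20 CPM. Timp2 was 4.18-fold (3.68 to 4.76) and Timp3 6.21-fold (3.83 to 10.4) higher at 5 months in the keratin class, and Mmp14 was 3.46-fold (2.53 to 4.85) lower. These were 2 of 4 members with enough counts for the rule that were higher and 1 that was lower, beside 12.7% and 17.7% of all genes. Mmp2, Mmp3 and Mmp12 were higher and Mmp14, Timp1, Timp3 and Serpine2 lower at 5 months in the other class, 3 and 4 of 8, beside 19.8% and 39.3% of all genes (59.1% together). Without the richest barcode, Mmp2 (19.8 CPM) and Mmp12 (11.3) at 5 months were under the 20 CPM of the rule. With no Tyrobp UMI allowed Mmp12 turned, at 1.95 CPM against 2.54 at 2 weeks. T cell markers summed to 6.77 CPM in that class at 2 weeks and 878 at 5 months, and B cell markers to 13.5 and 837, the 5 months library holding sorted CD45+ cells. The part of these cells in the values was not tested.

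The tumours were also set against each other by this rule. In the other class 8 of 10 members were higher in tumour 1 and none lower, beside 14.7% and 14.6% of all genes (29.3% together): Mmp13 236-fold (132 to 475), Mmp3 14.3-fold, Timp1 10.8-fold, Mmp14 4.83-fold, Mmp9 4.73-fold, Timp2 2.97-fold, Mmp2 2.68-fold and Timp3 2.51-fold. Mmp12 (1.82-fold) and Serpine2 (0.74-fold) were not. The fibroblast gate held 63.6% and 8.40% of these classes, and inside it Mmp2 was lower in tumour 1 than in tumour 2 (546 and 935 CPM). Of keratin class RNAs, Mmp13 (6.14-fold) and Timp1 (3.15-fold) were higher in tumour 1, 2 of 6 members beside 9.23% of all genes, and none was lower beside 9.84% (19.1% in either direction). In the Tyrobp class Timp2 was 2.53-fold higher in tumour 1, 1 of 7 beside 5.03%, and Mmp9 6.71-fold and Mmp13 2.42-fold lower, 2 of 7 beside 6.34%. Intervals on these folds cover counting error between 1 library and 1 other.

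Summed over members, the balance of inhibitor to protease RNA varied with class and library. The 3 TIMPs had 1.73 UMIs for each UMI of the 6 MMPs in the keratin class at 2 weeks, 14.2 at 5 months, 4.60 in tumour 1 and 4.30 in tumour 2. In the other class the ratio was 4.38, 0.64, 0.74 and 1.35, and in the Tyrobp class 0.54, 0.75 and 0.40. The keratin class was thus above the other class in the 5 months and tumour libraries and below it at 2 weeks, and the Tyrobp class was under 1 in all of its libraries. Single genes weighed heavily in these sums. In the keratin class, Mmp14 gave 355 of 356 MMP UMIs at 2 weeks and Timp2 675 of 798 TIMP UMIs at 5 months. In the Tyrobp class of tumour 1, Mmp12 gave 6422 of 9196 MMP UMIs. RNA ratios do not measure enzyme activity, which depends on precursor activation.

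Of 45 further genes of proteolysis, 36 were tested between classes. Against the Tyrobp class 3 were higher and 13 lower in the keratin class, beside 8.82% and 11.3% of all genes. The largest differences were Ctss -6.85, Mmp8 -6.83, Mmp19 -6.16, Adam19 -5.34, Adam8 -4.77 and Lgmn -4.45 log2 units. Ctss and Lgmn are lysosomal proteases of antigen-presenting cells, and Mmp8 is the neutrophil collagenase. In the other against the Tyrobp class 7 were higher and 10 lower, beside 2.48% and 4.81% of all genes. Adamts5, Adamts4, Adamts1 and Adamts2, enzymes that cut proteoglycans or trim procollagen, were 4.33, 4.13, 4.10 and 3.97 higher, and Ctss and Adam8 were 4.94 and 4.51 log2 units apart in the direction of the Tyrobp class. In the other against the keratin class 9 were higher and 1 lower, beside 3.66% and 2.29%. Ctsk, a collagen-cutting cathepsin, was 5.63 higher, Adamts2 5.50, Adam19 4.43, Mmp19 4.14 and Mmp11 3.96, and Mmp15 had -2.74. In the keratin class Adamts1 was the 1 of 32 that passed in tumours over 2 weeks (log2 4.95, SE 0.718, edgeR adjusted p = 0.037), beside 0.54% of all genes. None passed against 5 months in the keratin class (0 of 32) or the Tyrobp class (0 of 36), or in the difference between them (0 of 38).

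Likeness to each member was taken as Pearson's r of log2(CPM + 1) over the 11 class sums, among 8887 genes. These sums share libraries and depth, so the values are descriptions. Nearest to Mmp2 were Islr (0.963), Mmp3 (0.949) and Bgn (0.949), and nearest to Mmp3 were Clec3b (0.953), Mmp2 and Cpxm1 (0.945). Nearest to Mmp12 were Gngt2 (0.975), Zeb2 (0.967) and Fam105a (0.965), and to Mmp9 Hdc (0.914), Cxcl3 (0.912) and Elk3 (0.911). Mmp13 was nearest to Plau (0.922), which encodes urokinase, then 3300005D01Rik (0.912) and Ifi204 (0.903). Mmp14 was nearest to Zcchc24 (0.921), Sept8 (0.919) and Itpripl2 (0.909). P4ha2 (0.962) and Ckap4 (0.958) were among the genes nearest to Timp1, and Timp2 was nearest to Sumf1 (0.956), Rrbp1 (0.954) and Vegfa (0.948). Timp3 was nearest to Sfrp1 (0.976), Adamts1 (0.974) and Osr1 (0.967), and Serpine2 to Lix1l (0.951), Snhg18 (0.936) and Col11a1 (0.936). The 3 genes nearest to Mmp12 had their own highest level in the Tyrobp class of a tumour, and those nearest to Mmp2, Mmp3, Mmp13, Mmp14 and Timp3 in the other class of tumour 1.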

How the data were processed

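Droplet single-cell RNA was measured in 4 libraries. The values are UMI counts per gene and barcode as deposited by the authors, and the submitters' processing notes name Cell Ranger and the build mm10, or GRCm38. The version and the strand setting are not given in the sources used here. Genes listed in all libraries, 27998 in number, were used. Barcodes were classed by Krt8, Krt18, Ptprc and Tyrobp, and raw counts were summed per library and class, with at least 30 barcodes a sum. No doublet caller was run. Total UMIs per library ran from 6722044 to 23736366.

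Sums were tested with edgeR 4.0.16 (quasi-likelihood F test, filterByExpr, TMM, Benjamini-Hochberg adjustment over all tested genes, threshold 0.05) in R 4.3.3, after tests on simulated data. Class contrasts used the library as a block, since the class sums of 1 library come from the same sample, and left out barcodes in both named classes. The SE is the log2 fold change divided by the root of F. DESeq2 1.42.0, RLE size factors, no filter, stricter barcodes, other class rules and left-out libraries were alternatives. Those on single barcodes, mixed barcodes and class rules of the levels were chosen after seeing the data. Shares were thinned to 2000 UMIs (seed 1) with numpy 2.4.6, leaving out shallower barcodes: 224 and 53 of the keratin class at 2 weeks and 5 months, 1159 of the lymphocyte gate at 5 months and none in the tumours. Lymphocytes were barcodes with at least 2 UMIs of Cd3 and Cd79 genes and none of Tyrobp, Krt8 or Krt18. The floor of a count of 0 is 3 counts.

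The members and lists were chosen with earlier results of these data known. The text names all 10 members, up to 6 further protease genes per comparison that passed the threshold, by size of change, any cell type marker, and the 3 genes most like each member. Timp1, Timp3 and Mmp12 overlap genes on the other strand (Syn1, Syn3 and Mmp1b), and Timp2 overlaps Cep295nl. Of the genes most like each member in pattern, 1 is not reported here.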

Additional observations from a re-analysis of the deposited data

Results flagged for a closer look

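Timp2 stood out because its step from 5 months to tumour ran in opposite directions in the keratin and Tyrobp classes. Its level went from 285 to 146 and 107 CPM in the keratin class, and from 110 to 365 and 144 CPM in the Tyrobp class. C1q gate barcodes were 19.9% of the Tyrobp class at 5 months and 91.3% and 41.0% in the tumours, and inside that gate Timp2 had 317, 383 and 201 CPM, higher in tumour 1 and lower in tumour 2 than at 5 months. The part of this shift in the difference was not tested. The difference of the steps was -2.46 on the log2 scale (SE 0.548, edgeR adjusted p = 0.188), which did not pass over all genes, and DESeq2 gave an adjusted p of 0.06. Over the alternatives the adjusted p ran from 0.00146 to 1.00 and the difference from -2.61 to -2.45. Without tumour 1 the difference was -2.04 and without tumour 2 it was -2.87, both values without a test.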

How the results depend on the processing

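Genes called, in the order keratin class tumour against 2 weeks, keratin class tumour against 5 months, Tyrobp class tumour against 5 months, other against Tyrobp, other against keratin, keratin against Tyrobp, and the difference of steps, numbered 134, 17, 0, 859, 702, 2376 and 8. With DESeq2 552, 135, 230, 1934, 1388 and, for the last, 60 were called. With no filter on low counts 1255, 543, 1141, 1451, 1244 and, for the last, 365 were called. RLE size factors gave 47, 0 and, for the last, 0, and stricter barcodes gave 0, 0 and, for the last, 4. Leaving out barcodes of both named classes gave 267 and 58 in the keratin class, and a joint fit 66 and 0. With no replicate block the class contrasts gave 244, 50 and 1419 and the last 0. With the tumours only, other against Tyrobp gave 2252. With Tyrobp at 3 or more kept in the other class, other against Tyrobp gave 0 and other against keratin 1641. Leaving out each library in turn gave 60 to 1308, 269 to 508 and 837 to 2722 in the class contrasts. The causes were not tested.

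Log2 values that turned sign belonged to members without a call as reported. Other against Tyrobp, Mmp13 (-1.09) was -3.91 to 0.80 when leaving out each library, 0.24 with tumours only and 1.93 with no replicate block. Mmp14 (-0.66) was 0.10 with tumours only and 0.031 with no replicate block. Timp2 (-0.04) was 0.015 with RLE, 0.0092 with DESeq2, -0.34 (without tumour 1) to 0.17 (without 2 weeks) and 0.40 with tumours only. Other against keratin, Timp2 (-0.08) was 0.36 without 2 weeks, 0.81 without 5 months, 1.72 with tumours only and 0.78 with no replicate block. Mmp14 (0.66) was -0.48 without tumour 1 and 1.42 without 2 weeks, and Serpine2 (0.27) was -0.14 without 2 weeks, 0.59 without 5 months and -0.28 with Tyrobp at 3 or more kept. Keratin against Tyrobp, Timp2 (0.03) was -0.19 without 2 weeks, -0.82 without 5 months, 0.52 without tumour 1, -1.32 with tumours only, -0.85 with no replicate block and -0.052 with Tyrobp at 3 or more kept, and Mmp3 (-0.56) was 0.13 without tumour 1 and -2.45 without tumour 2. Keratin class tumour against 5 months, Mmp14 (0.27) was -0.17 without tumour 1 and 0.61 without tumour 2. In the difference of steps, Timp1 (-0.40) was 0.22 without tumour 2 and -1.05 without tumour 1, and Serpine2 (0.10) was -1.02 without tumour 1, 1.24 without tumour 2 and -0.10 with no replicate block. Leaving out a tumour in the stage contrasts left no residual degrees of freedom, so those are values without a test. Depth limits Mmp2, Mmp3, Mmp9, Mmp12 and Mmp13 in the early keratin class, at 7 UMIs or fewer each.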

Other observations

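Within the keratin class, barcodes without an Epcam UMI differed in members from those with one. In tumour 1 these 60 barcodes had 379 CPM of Timp1, 372 of Timp2, 82.6 of Mmp13 and 177 of Serpine2, and the 381 with Epcam had 111, 112, 18.4 and 742. In tumour 2 the 30 barcodes without Epcam had 128, 198, 4.13 and 433 CPM, and the 391 with it had 41.1, 101, 4.38 and 499.7. Col1a1, a fibroblast collagen, was at 219 CPM without Epcam and 9.62 with it in tumour 1, and at 4.13 and 1.37 in tumour 2. In the tumour 2 barcodes without Epcam, 4.13 CPM of Mmp13 or Col1a1 was under the floor of 3 counts. Macrophage markers summed to 888 CPM without Epcam and 208 with it in tumour 1, and to 57.8 and 77.8 in tumour 2. Median depths were 10762 and 14147 UMIs in tumour 1, and 7181.5 and 8296 in tumour 2. The part of mixed barcodes in these differences was not tested. Of keratin class barcodes with Timp3, 97 of 118 in tumour 1 and 94 of 132 in tumour 2 also had Serpine2. These shares were near those of the whole keratin class, where 85.5% and 70.8% of barcodes had Serpine2.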
